A study of Mus musculus with 12 samples.

Results

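Genes of the contractile actin apparatus that are best known from muscle were examined in W-20 cells, a murine bone marrow stromal cell (BMSC) line (W-20-17). The set comprised 10 genes chosen by name: the muscle-type actins *Acta1*, *Acta2* and *Actg2*, the calponins *Cnn1*, *Cnn2* and *Cnn3*, the transgelins *Tagln* and *Tagln2*, the regulatory myosin light chain *Myl9* and the actin filament protein nexilin, *Nexn*. All 10 were found among the 56980 genes of the count matrix, and all 10 passed the filter on low counts (a total of at least 10 counts over the libraries) that kept 17691 genes for testing. The genes were chosen with their response to parathyroid hormone (PTH) in unmodified cells already known, so their values are given as a description, also where the lines are compared. Calls at an adjusted p under 0.05 are counted for them, but the p-values are not printed and the counts are no test of the set.

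Bulk RNA-Seq of poly(A) RNA was available for 12 libraries, 3 in each of 4 groups. W-20 cells titled W20 (WT) and cells titled Y428F, after a tyrosine-to-phenylalanine change in the Hippo pathway coactivator YAP, were each exposed for 2 hours to 50 nM PTH or to vehicle (PBS). Library totals ranged from 17513924 to 19018693 counts in WT cells with vehicle, from 17127897 to 17750085 in WT cells with PTH, from 17670681 to 19057319 in Y428F cells with vehicle and from 17731876 to 18064022 in Y428F cells with PTH. The genotype field gives WT for all 12 libraries, and the lines were told apart by the titles. The 2 lines named there differed in *Bche*, a gene singled out for this after its values were seen, which had 0 counts in each of the 6 WT libraries and 655 to 825 in each of the 6 Y428F libraries. The study's methods describe stable lines made with tagged YAP plasmids and puromycin selection of positive clones, with the tyrosine change alone or together with a serine-to-alanine change. For the RNA-Seq experiment the study's text names the double mutant in some sentences and the tyrosine change alone in others, whereas the titles name Y428F alone. Cells with introduced wild-type YAP were not analysed here, so the effect of the mutation and other differences between the lines cannot be told apart. Nothing in the labels says that the 3 libraries of a group came from separate cultures, so p-values measure the spread between libraries, which may be technical.

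Actins polymerize into filaments, and the muscle-type isoforms are the ones built into the contractile filaments of skeletal, cardiac and smooth muscle, whereas the beta and gamma isoforms serve the cytoskeleton of nearly every cell. Calponins and transgelins are related proteins that bind along actin filaments, and the regulatory light chain encoded by *Myl9* is the part of nonmuscle and smooth muscle myosin whose phosphorylation turns on contraction. Many of these genes are classic targets of serum response factor (SRF), which binds the CArG box and is driven by coactivators that respond to the pool of unpolymerized actin.

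A RefSeq promoter entry was found for 7 of the 10 genes, and its 250 bases before the transcription start were searched on both strands for the CArG box, the MCAT element CATTCC, which is the binding motif of TEAD factors, the partners of YAP, and the cAMP response element TGACGTCA. Entries for *Actg2*, *Tagln* and *Nexn* were not found. A CArG box was present in 3 of the 7 promoters, those of *Acta1*, *Cnn2* and *Myl9*, compared with 1.47% of 32841 RefSeq promoters of the same length. When 1 departure in its A/T core was allowed, *Acta2* was added and the share of all promoters was 8.59%. The following sites of 30 bases each were taken from the RefSeq promoters (GRCm38.p6 table) and placed on GRCm39 by exact match. They are shown because they hold the CArG box nearest to each start, or in *Acta2* both near-matches. The capitals mark the CArG box or its near-match, and each sequence is printed 5′ to 3′ on the strand of its gene.
*Acta1*, chr8:124621568-124621597, minus strand: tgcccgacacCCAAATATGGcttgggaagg
*Acta2*, chr19:34232838-34232867, minus strand, 1 departure: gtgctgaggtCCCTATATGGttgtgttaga
*Acta2*, chr19:34232788-34232817, minus strand, 1 departure: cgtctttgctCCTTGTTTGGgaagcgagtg
*Cnn2*, chr10:79824368-79824397, plus strand: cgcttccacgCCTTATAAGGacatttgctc
*Myl9*, chr2:156617213-156617242, plus strand: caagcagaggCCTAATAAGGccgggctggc
GENCODE vM39 starts the transcripts of *Acta1*, *Acta2* and *Myl9* further upstream than RefSeq and counts these sites as exon outside the coding sequence, whereas the *Cnn2* site lies before the annotated gene. The CATTCC element was present in 3 of the 7 promoters (*Acta1*, *Acta2* and *Tagln2*), compared with 12.6% of all promoters, and TGACGTCA in 0 of the 7, compared with 1.55%. *Cnn1* and *Cnn3* held none of these motifs in this window. A match describes letters in the window and says nothing about binding.

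**Figure D1:**
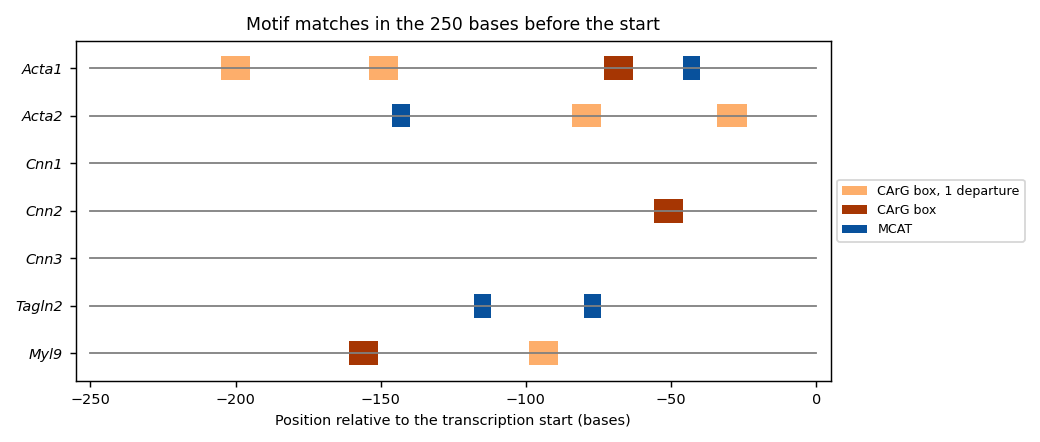
Positions of motif matches in the 250 bases before the RefSeq transcription start of the 7 genes with a promoter entry; the horizontal axis is the distance from the start in bases. The CArG box lies 73 to 64 bases before the start of *Acta1*, 56 to 47 before that of *Cnn2* and 161 to 152 before that of *Myl9*, and *Cnn1* and *Cnn3* have no match.

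With PTH all 10 genes were called higher in WT cells and 8 of the 10 in Y428F cells, where the fold changes were smaller in value and *Cnn3* and *Tagln2* did not pass the limit. Expression is given in CPM, in which counts are put on one library size by the TMM method of edgeR. The summed level of the 10 genes was 1170 CPM in WT cells with vehicle and 2204 CPM with PTH (means of 3 libraries), and 1316 CPM and 1752 CPM in Y428F cells. In WT cells 10 of the 10 genes were higher with PTH at an adjusted p under 0.05 and 0 were lower, while 7.42% of all genes tested were higher, 6.01% were lower and 13.4% passed in either direction. In 10 of the 10 the libraries of the treatments did not overlap, with PTH higher, as for 13.2% of all genes. In Y428F cells 8 of the 10 were higher and 0 were lower (6.61% and 5.78% of all genes, 12.4% in either direction), and 10 of the 10 did not overlap (15.5% of all genes). The count of 8 ranged from 6 to 10 when a library was left out, with *Actg2* not called in 3 of the 12 such fits and *Nexn* in 1. *Cnn3* and *Tagln2* were each called in 2 of the 12. As the genes were chosen with this contrast in view, nothing is read from these counts. The median log2 fold change of the set was 1.77 in WT cells (range 0.26 to 4.03) and 0.73 in Y428F cells (range 0.15 to 2.32), beside medians of -0.019 and -0.0067 over all genes tested. Each value is from bulk RNA, in which more cells that express a gene and more RNA per cell cannot be told apart.

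**Figure D2:**
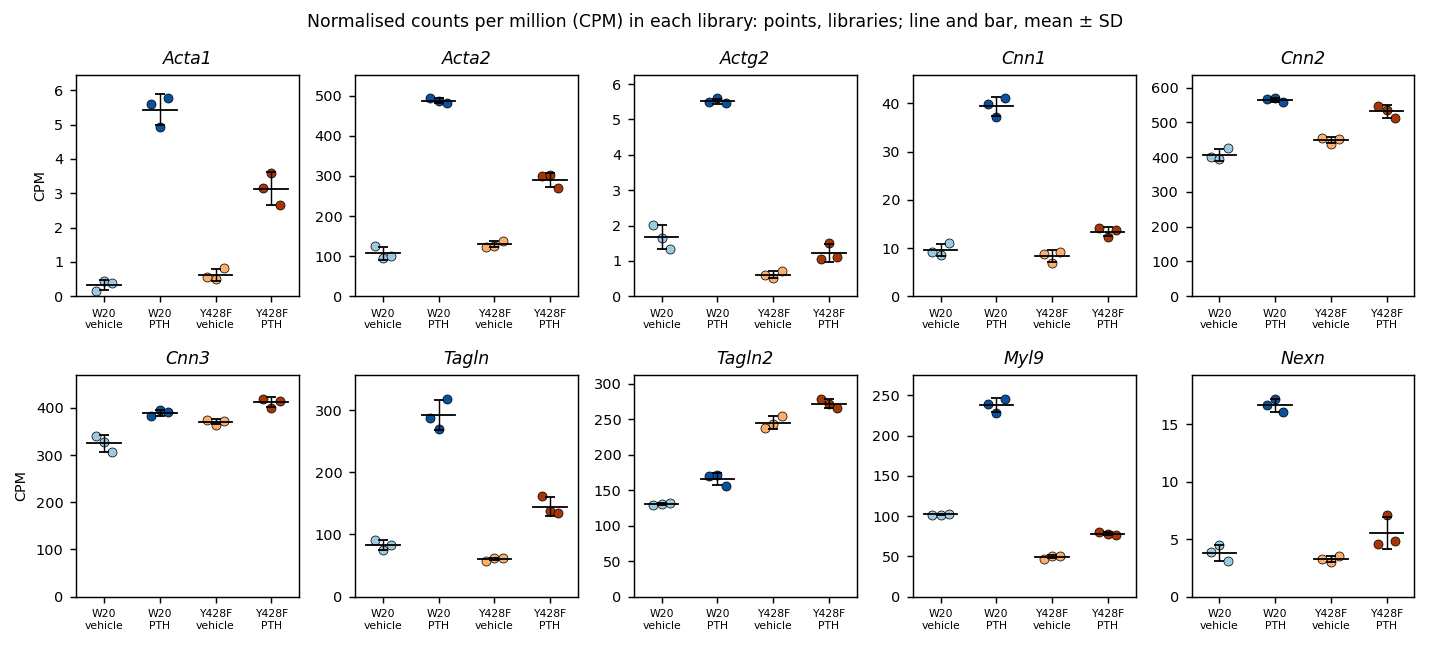
Expression of each of the 10 genes in CPM (vertical axes, each from 0) in the 12 libraries; points are libraries, and the line and bar give the mean ± SD of the 3 libraries of each group. In both lines the PTH libraries lie above the vehicle libraries for every gene, and the PTH libraries of Y428F cells lie below those of WT cells for 8 of the 10, with *Cnn3* and *Tagln2* the exceptions.

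*Acta1* (ENSMUSG00000031972, chr8:124618501-124623661, minus strand), the actin of skeletal muscle, had the largest fold change of the set with PTH in both lines. Its level was the lowest of the set in WT cells with vehicle, whereas in WT cells with PTH its libraries overlapped those of *Actg2*. Its counts were 3, 8 and 7 in WT cells with vehicle and 95, 80 and 99 with PTH. The Y428F libraries held 10, 10 and 15 counts with vehicle and 57, 64 and 48 with PTH. With vehicle these were few counts, and the PTH libraries of the 2 lines did not overlap, those of WT cells being higher. The log2 fold change with PTH was 4.03 (SE 0.30) in WT cells and 2.32 (SE 0.28) in Y428F cells, at ranks 64 and 170 from the top of the 17691 genes. In CPM these levels were 0.33 ± 0.15 and 5.43 ± 0.45 in WT cells and 0.62 ± 0.17 and 3.13 ± 0.48 in Y428F cells (SD, n = 3).

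*Acta2* (ENSMUSG00000035783, chr19:34217737-34232990, minus strand), the actin of vascular smooth muscle and a marker of myofibroblasts, was the main muscle-type actin in all 4 groups. It had 125, 94.6 and 101 CPM in WT cells with vehicle and 493, 486 and 481 CPM with PTH. Y428F cells had 124, 126 and 138 CPM with vehicle and 299, 301 and 270 CPM with PTH. The vehicle libraries of the lines overlapped in range, and the PTH libraries did not. The log2 fold change with PTH was 2.19 (SE 0.081) in WT cells, a 4.56-fold rise, and 1.17 (SE 0.079) in Y428F cells, a 2.24-fold rise.

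*Actg2* (ENSMUSG00000059430, chr6:83489887-83513551, minus strand), the actin of enteric smooth muscle, was expressed at a low level and was lower in Y428F cells throughout. It had 2.01, 1.65 and 1.34 CPM in WT cells with vehicle and 5.48, 5.60 and 5.47 CPM with PTH. Expression in Y428F cells was 0.602, 0.506 and 0.710 CPM with vehicle and 1.05, 1.52 and 1.10 CPM with PTH, from 10 to 27 counts per library. The 4 groups overlapped only where WT vehicle libraries met Y428F PTH libraries. With PTH it changed by 1.72 (SE 0.22) in WT cells and by 1.01 (SE 0.29) in Y428F cells on the log2 scale.

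The 3 actins were compared with the other actins as shares of actin expression per kilobase of transcript, with *Actb*, *Actg1* and the cardiac *Actc1* included. They made up 1.73% ± 0.23 of this sum in WT cells with vehicle and 4.12% ± 0.16 with PTH (SD, n = 3). In Y428F cells they made up 1.47% ± 0.059 with vehicle and 2.50% ± 0.061 with PTH. Nearly all of it was *Acta2*, at 3.97% ± 0.15 in WT cells with PTH, whereas *Acta1* and *Actg2* were at 0.0750% ± 0.0088 and 0.0766% ± 0.0034 there. *Actb* held between 48.7% and 54.7% of the sum in every library. Actin coding sequences resemble each other closely, with 85.4% identity between *Acta1* and *Acta2* and 84.8% between *Acta1* and *Actb*. The longest run of identical coding bases was 77 between *Acta1* and *Actb* and 26 between *Actg2* and *Actb*, and 0% of the 100-base windows of the *Acta1* and *Actg2* transcripts were found in that of *Actb*. *Actb* reached 75781 counts in a library and *Acta1* at most 99, and how reads were divided between actins was not tested.

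*Cnn1* (ENSMUSG00000001349, chr9:22010512-22020926, plus strand), the calponin of differentiated smooth muscle, had the largest response among the calponins. It had 9.26, 8.64 and 11.1 CPM in WT cells with vehicle and 39.9, 37.2 and 41.1 CPM with PTH. In the Y428F line, expression was 8.82, 6.93 and 9.17 CPM with vehicle and 14.3, 12.3 and 13.7 CPM with PTH. The lines overlapped with vehicle and were far apart with PTH. The log2 fold change was 2.03 (SE 0.11) in WT cells, a 4.07-fold rise, and 0.70 (SE 0.12) in Y428F cells, a 1.62-fold rise.

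The widely expressed calponins moved little. *Cnn2* (ENSMUSG00000004665, chr10:79824410-79831896, plus strand), a calponin of nonmuscle cells, had 401, 394 and 426 CPM in WT cells with vehicle and 567, 570 and 558 CPM with PTH. The Y428F libraries held 454, 439 and 453 CPM with vehicle and 546, 537 and 512 CPM with PTH. No groups overlapped, and the step with PTH was 0.47 (SE 0.052) in WT cells and 0.24 (SE 0.052) in Y428F cells on the log2 scale. *Cnn3* (ENSMUSG00000053931, chr3:121220146-121251856, plus strand), the acidic calponin, had 341, 327 and 307 CPM in WT cells with vehicle and 383, 396 and 391 CPM with PTH. Those of Y428F cells held 375, 365 and 373 CPM with vehicle and 420, 400 and 416 CPM with PTH. Here too the groups were separate, and the step was 0.26 (SE 0.053) in WT cells and 0.15 (SE 0.053) in Y428F cells, where the gene was not called.

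*Tagln* (ENSMUSG00000032085, chr9:45840909-45847404, minus strand), which encodes SM22-alpha, an early marker of smooth muscle, kept more of its rise in Y428F cells than *Cnn1* did. It had 90.9, 75.1 and 83.6 CPM in WT cells with vehicle and 287, 270 and 318 CPM with PTH. Y428F cells had 57.8, 61.5 and 61.5 CPM with vehicle and 162, 138 and 135 CPM with PTH. All 4 groups were separate, those of Y428F cells being lower at each treatment. Its log2 fold change was 1.81 (SE 0.080) in WT cells and 1.26 (SE 0.081) in Y428F cells.

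*Tagln2* (ENSMUSG00000026547, chr1:172327426-172334947, plus strand), the transgelin of nonmuscle cells, went the other way between the lines. It had 129, 131 and 132 CPM in WT cells with vehicle and 170, 171 and 156 CPM with PTH. Expression in Y428F cells was 238, 244 and 255 CPM with vehicle and 279, 271 and 267 CPM with PTH. Every Y428F library was above every WT library. The log2 fold change with PTH was 0.34 (SE 0.054) in WT cells and 0.15 (SE 0.053) in Y428F cells, where the gene was not called.

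*Myl9* (ENSMUSG00000067818, chr2:156617084-156623579, plus strand) had 102 CPM in each of the 3 libraries of WT cells with vehicle and 240, 228 and 246 CPM with PTH. The Y428F line had 47.0, 50.0 and 50.5 CPM with vehicle and 80.3, 78.0 and 76.4 CPM with PTH. Even with PTH, every Y428F library was below every WT vehicle library. With PTH the log2 fold change was 1.22 (SE 0.053) in WT cells and 0.67 (SE 0.056) in Y428F cells.

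*Nexn* (ENSMUSG00000039103, chr3:151940103-151972066, minus strand), which encodes the filament protein nexilin, had 3.86, 4.49 and 3.06 CPM in WT cells with vehicle and 16.6, 17.2 and 16.1 CPM with PTH. Y428F cells had 3.29, 3.03 and 3.49 CPM with vehicle and 4.60, 7.13 and 4.85 CPM with PTH. The lines overlapped with vehicle, and with PTH the highest Y428F library was below the lowest WT library. Its log2 response was 2.13 (SE 0.16) in WT cells and 0.76 (SE 0.17) in Y428F cells. Exons of *Nexn* and *Cnn1* overlap exons of *Fubp1* and *Elof1* on the opposite strand, over 2367 and 961 bases, and it is not stated whether counting used the strand. *Fubp1* had 829 to 1359 counts and *Elof1* 625 to 928 counts per library. Their differences in response between the lines were 0.052 (SE 0.091) and -0.024 (SE 0.15) on the log2 scale. With PTH *Fubp1* changed by 0.18 (SE 0.065) in WT cells and 0.23 (SE 0.063) in Y428F cells, and *Elof1* by 0.15 (SE 0.10) and 0.13 (SE 0.10). *Fubp1* was higher in Y428F cells by 0.37 (SE 0.064) with vehicle and 0.43 (SE 0.064) with PTH. *Elof1* was at -0.18 (SE 0.10) and -0.20 (SE 0.10) in the same comparisons. *Stambpl1* and *Pcsk7* overlap *Acta2* and *Tagln* in the same way, over 301 and 123 bases, with differences in response of 0.17 (SE 0.11) and 0.034 (SE 0.10). *Stambpl1* rose with PTH by 0.28 (SE 0.078) in WT cells and 0.45 (SE 0.077) in Y428F cells, and *Pcsk7* was at 0.046 (SE 0.072) and 0.080 (SE 0.073). In Y428F against WT cells *Stambpl1* was at -0.027 (SE 0.078) with vehicle and 0.14 (SE 0.076) with PTH, and *Pcsk7* at -0.21 (SE 0.073) and -0.18 (SE 0.073). These 4 genes, the protein-coding ones, were singled out for the overlap. Genes that are not protein-coding overlap as well. *Gm48529* overlaps *Tagln* over 1241 bases, with 21 to 69 counts per library, and *Gm65348* overlaps *Nexn* over 736 bases, with no counts available. Those over *Acta1*, *Cnn3* and *Myl9* are *Gm29773*, *Gm42928* and *5730471H19Rik*, over 209, 538 and 169 bases. They had at most 4, 27 and 29 counts per library. The part of these overlaps in the values of the set was not tested.

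**Figure D3:**
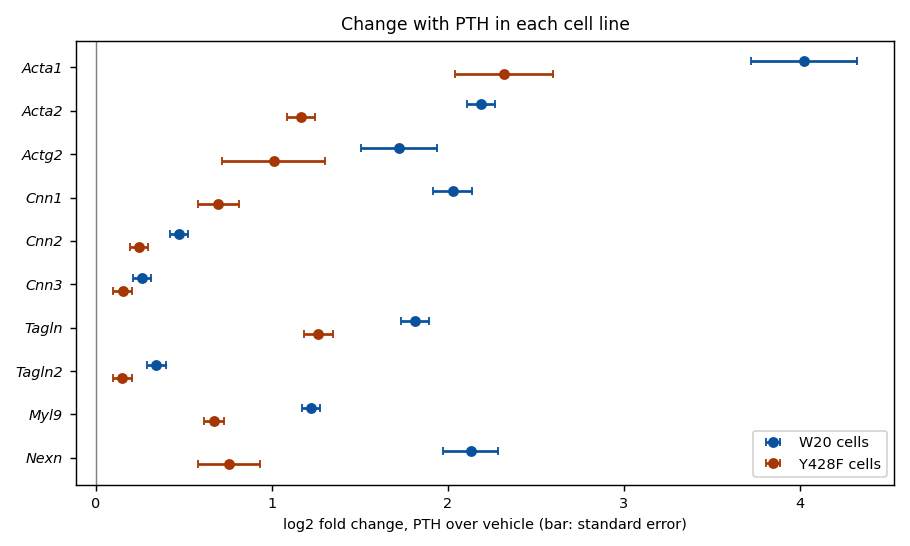
Log2 fold change of each gene with PTH over vehicle (horizontal axis) in WT (W20) and Y428F cells; bars are standard errors from edgeR. All 20 points lie above 0, and the point of Y428F cells lies to the left for each gene, from 2.32 against 4.03 for *Acta1* to 0.15 against 0.26 for *Cnn3*.

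Levels of different genes were compared per kilobase of the canonical transcript (CPM per kb). In WT cells with vehicle the nonmuscle calponins were highest, *Cnn2* at 165 ± 6.93 and *Cnn3* at 159 ± 8.55 CPM per kb (SD, n = 3), and their libraries overlapped. *Myl9* (73.7 ± 0.19) and *Tagln2* (73.6 ± 0.82) followed and overlapped as well. Then came *Tagln* at 50.4 ± 4.77 and *Acta2* at 38.3 ± 5.68 CPM per kb, each separate from its neighbours. *Cnn1* at 3.97 ± 0.51, *Nexn* at 1.33 ± 0.25, *Actg2* at 1.02 ± 0.20 and *Acta1* at 0.20 ± 0.093 CPM per kb were the lowest, of which only *Nexn* and *Actg2* overlapped. With PTH in WT cells *Tagln* (177 ± 14.9), *Acta2* (175 ± 2.19) and *Myl9* (172 ± 6.62) drew level with each other, the first of them overlapping *Cnn3* at 190 ± 3.21 CPM per kb. In Y428F cells with PTH *Tagln2*, at 153 ± 3.61 CPM per kb, stayed above *Acta2* (104 ± 6.15), *Tagln* (87.6 ± 9.01) and *Myl9* (56.5 ± 1.42).

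The lines were then compared at each treatment, to ask whether the set differed before PTH was added. The vehicle libraries of WT cells are also the base of the response known when the genes were chosen, and choosing genes with a large rise favours low values there and so higher values in Y428F cells, which makes this comparison a description too. With vehicle, at the same limit of 0.05, 4 of the 10 genes were higher in Y428F cells (22.4% of all genes were) and 3 were lower (22.7% of all genes were). The comparison called 45.1% of all genes in either direction, so that counts of this size are not particular to the set. The libraries of the lines did not overlap for 4 genes that were higher (27.5% of all genes) and 3 that were lower (26.3% of all genes). The 4 that were higher in this way were *Acta1*, *Cnn2*, *Cnn3* and *Tagln2*. They differ from the 4 called, as *Acta1* was not called and *Acta2* was called with overlapping libraries. The median of the set was -0.038 on the log2 scale, compared with 0.012 over all genes tested. *Tagln2* was higher by 0.91 (SE 0.054), *Acta2* by 0.28 (SE 0.080), *Cnn3* by 0.19 (SE 0.053) and *Cnn2* by 0.14 (SE 0.052). *Actg2* fell by 1.45 (SE 0.28), *Myl9* by 1.05 (SE 0.055) and *Tagln* by 0.47 (SE 0.082). *Acta2* was no longer called in 2 and *Cnn2* in 4 of the 12 fits that left out a library. For *Acta1*, *Cnn1* and *Nexn* the differences did not pass the limit, at 0.91 (95% interval 0.087 to 1.74), -0.22 (-0.47 to 0.033) and -0.22 (-0.60 to 0.17), intervals that are not adjusted for the number of genes. Here and below, adjusted p-values come from the quasi-likelihood test of edgeR, with the Benjamini-Hochberg method applied to all 17691 genes.

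The comparison of the lines with PTH uses the WT libraries whose high values were known when the genes were chosen, a choice that favours lower values in Y428F cells, so it is a description. At an adjusted p under 0.05, 7 of the 10 genes were lower in Y428F cells than in WT cells (23.0% of all genes were) and 1 was higher (22.8% of all genes were, and 45.7% were called in either direction). The libraries did not overlap for 8 genes that were lower (26.3% of all genes) and 2 that were higher (25.6% of all genes), and nothing is read from these counts. The median of the set was -0.90, compared with 0.019 over all genes tested. The log2 difference was -2.17 (SE 0.23) for *Actg2*, the furthest from 0, and -1.60 (SE 0.054) for *Myl9*. It was -1.59 (SE 0.15) for *Nexn* and -1.55 (SE 0.11) for *Cnn1*. *Tagln* was lower by a factor of 2.02, *Acta1* by 1.73 and *Acta2* by 1.68. The gene that was higher was *Tagln2*, by 0.72 (SE 0.054). *Cnn2* and *Cnn3* did not pass the limit, at -0.087 (95% interval -0.20 to 0.021) and 0.079 (-0.032 to 0.19). The mitochondrial share of counts was 0.703% to 0.746% in the Y428F libraries with PTH and 0.815% to 0.997% in the WT libraries with PTH, and its part in these differences was not tested.

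**Figure D4:**
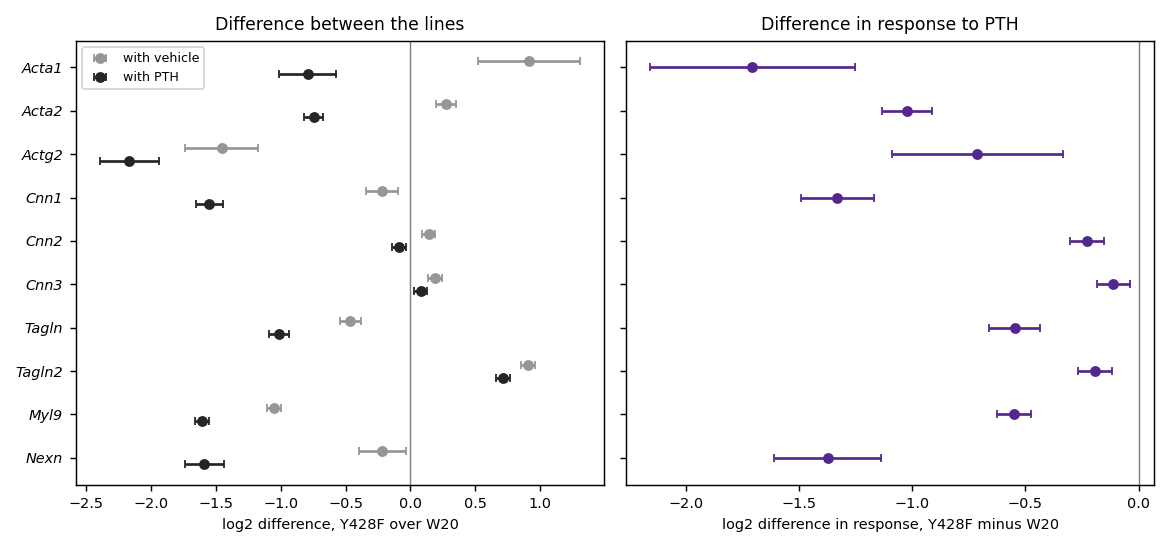
Left, log2 difference of Y428F over WT (W20) cells with vehicle (grey) and with PTH (black); right, the difference of the log2 response to PTH, Y428F minus WT cells; bars are standard errors from edgeR. On the left the black points lie to the left of the grey ones for every gene, and on the right all 10 points lie below 0, from -0.11 for *Cnn3* to -1.71 for *Acta1*.

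The difference between the lines in their response to PTH was estimated as the interaction of line and treatment in the same fit. It contains the response of WT cells that was known when the genes were chosen, and choosing genes for a rise in one line favours a smaller rise in the other, so the values are a description. At an adjusted p under 0.05 the response was smaller in Y428F cells for 5 of the 10 genes and larger for 0, while 0.243% of all genes tested had a lower response and 0.170% a higher one, 0.413% together, and nothing is read from these counts. The log2 difference in response was -1.37 (SE 0.24) for *Nexn*, -1.33 (SE 0.16) for *Cnn1*, -1.02 (SE 0.11) for *Acta2* and -0.55 for both *Myl9* (SE 0.076) and *Tagln* (SE 0.11). The rise of *Cnn1* was 4.07-fold in one line and 1.62-fold in the other, and that of *Nexn* 4.38-fold and 1.69-fold. *Tagln* was no longer called in 9 of the 12 fits that left out a library, and the other 4 genes were called in all 12.

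The estimate for *Acta1*, -1.71 (SE 0.45), was the furthest from 0 in the set but rested on few counts with vehicle and was not called. *Actg2* was at -0.71 (95% interval -1.50 to 0.073), *Cnn2* at -0.23 (-0.38 to -0.075), *Tagln2* at -0.19 (-0.35 to -0.035) and *Cnn3* at -0.11 (-0.27 to 0.045), none of them past the limit after adjustment. The median difference in response over the set was -0.63, beside 0.0017 over all genes tested.

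The closest relatives of the set were taken as a further list, of which 6 of 9 could be tested. This list and those below were chosen with earlier results of these data known, so their adjusted p-values are a description too. The cytoplasmic actins rose with PTH in both lines. *Actb*, beta-actin, rose by 0.86 (SE 0.063, adjusted p = 9.07e-09) in WT cells and by 0.35 (SE 0.063, adjusted p = 0.000806) in Y428F cells, a difference in response of -0.51 (SE 0.089, adjusted p = 0.0106). *Actg1*, gamma-actin, rose by 0.97 (SE 0.054, adjusted p = 1.25e-10) and by 0.44 (SE 0.054, adjusted p = 1.34e-05), a difference of -0.53 (SE 0.076, adjusted p = 0.00139). The difference in response of *Actb* lost its call in 2 of the 12 fits that left out a library (without WT PTH replicate 1 or Y428F PTH replicate 3), and that of *Actg1* in 0. Both were higher in Y428F cells with vehicle, by 0.42 and 0.58, and with PTH the lines differed by -0.089 and 0.043, neither past the limit. The nonmuscle regulatory light chain *Myl12a* rose by 0.28 and 0.31 with a difference of 0.036 (SE 0.11, adjusted p = 0.985). Its call in WT cells was lost in 5 of the 12 fits that left out a library and its call in Y428F cells in 3. *Myl12b* did not pass the limit with PTH, at -0.075 and 0.12, and was lower in Y428F cells by 1.35 with vehicle (SE 0.098, adjusted p = 4.12e-10), as its relative *Myl9* was. The essential light chain *Myl6* passed in no comparison, at 0.14 and 0.10 with PTH. *Actc1*, cardiac actin, had at most 3 counts in any library, and *Tagln3*, *Myl2* and *Myl7* had at most 2 and were not tested.

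Of 18 contractile and actin-binding genes of smooth muscle, 9 were higher and 0 lower with PTH in WT cells (7.42% and 6.01% of all genes), and 8 were higher and 1 lower in Y428F cells (6.61% and 5.78% of all genes). Their medians were 0.39 and 0.20 on the log2 scale. The largest changes in WT cells past the limit were those of *Lmod1*, leiomodin, which nucleates actin filaments, by 2.24 (SE 0.54, from 2 to 21 counts per library), *Vcl*, vinculin, by 1.36 (SE 0.081), *Csrp1*, a LIM domain protein, by 0.95 (SE 0.057), and *Pdlim7*, an actin-bound scaffold, by 0.90 (SE 0.051). In Y428F cells these were *Synpo2*, which binds actin at the Z-disc, by 2.80 (SE 0.71, from 0 to 22 counts per library), *Lmod1* by 2.21 (SE 0.51), *Vcl* by 0.94 (SE 0.080) and *Csrp1* by 0.64 (SE 0.057). The gene that was lower there was *Svil*, supervillin, at -0.25 (SE 0.074, adjusted p = 0.0297), and its call was lost in 4 of the 12 fits that left out a library, as that of *Synpo2* was in 3. The response differed between the lines for 2 of the 18 (0.413% of all genes), *Pdlim7* by -0.46 (SE 0.072, adjusted p = 0.00416) and *Tpm1*, tropomyosin, by -0.34 (SE 0.071, adjusted p = 0.0344). The count of 2 ranged from 1 to 3 when a library was left out, and the call of *Tpm1* was lost in 8 of the 12 such fits. For *Lmod1* it differed by -0.027 (SE 0.62).

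With vehicle 5 of these 18 genes were higher in Y428F cells and 4 were lower (22.4% and 22.7% of all genes), with *Des*, desmin, at 0.97, *Csrp2* at 0.81, *Filip1l* at 0.67 and *Vcl* at -0.40 the largest past the limit. With PTH 3 were higher and 9 lower (22.8% and 23.0% of all genes), the largest past the limit being *Vcl* at -0.83, *Des* at 0.79, *Csrp2* at 0.77 and *Filip1l* at 0.63. Per kilobase, *Tpm1* was the most abundant gene of the list in each group, at 332 CPM per kb in WT cells with vehicle and 575 with PTH, and at 368 and 505 CPM per kb in Y428F cells. *Flna*, filamin A, had the highest CPM, which is not set per length, and rose by 0.32 (SE 0.068) in WT cells and was at 0.082 (SE 0.068) in Y428F cells, a difference of -0.24 (SE 0.096, adjusted p = 0.608).

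SRF and its partners were described as a list of 9 genes, of which 8 were tested. With PTH 6 were higher and 0 lower in WT cells (7.42% and 6.01% of all genes), and 4 were higher and 0 lower in Y428F cells (6.61% and 5.78%). The count of 6 fell to 3 without the second PTH library of WT cells. *Srf* itself rose by 1.66 (SE 0.068, adjusted p = 1.08e-12) in WT cells and by 1.22 (SE 0.067, adjusted p = 2.49e-10) in Y428F cells. The difference of -0.44 (SE 0.095, adjusted p = 0.0456) was just past the limit and lost its call in 8 of the 12 fits that left out a library. *Fhl1*, a LIM domain protein of muscle, rose by 1.87 (SE 0.091) and 1.53 (SE 0.079), and *Fhl2*, a LIM domain cofactor of SRF, by 0.46 (SE 0.067) and 0.63 (SE 0.066). The coactivator *Mrtfa* rose by 0.25 (SE 0.077) and 0.38 (SE 0.076). *Mrtfb* rose by 0.33 (SE 0.082) in WT cells and was at 0.23 (adjusted p = 0.0733) in Y428F cells, and *Elk4*, an ETS partner of SRF, was at 0.32 (adjusted p = 0.0474) and 0.20 (adjusted p = 0.233). In WT cells the calls of *Mrtfa*, *Mrtfb* and *Elk4* were lost in 4, 1 and 5 of the 12 fits that left out a library. The ETS partners *Elk1* and *Elk3* did not pass the limit in either line, at 0.019 and -0.13 in WT cells. *Myocd*, myocardin, the coactivator of smooth muscle and heart, had at most 3 counts in any library. Between the lines with vehicle, *Fhl1* (1.86), *Elk3* (0.65) and *Mrtfa* (0.19) were higher in Y428F cells and *Elk1* was lower (-0.40), beside 22.4% and 22.7% of all genes. *Mrtfa* was close to the limit there (adjusted p = 0.0493) and lost its call in 7 of the 12 fits that left out a library. With PTH the same comparison called *Fhl1* (1.52), *Elk3* (0.78), *Mrtfa* (0.32) and *Fhl2* (0.24) higher and *Elk1* (-0.41) and *Srf* (-0.36) lower, beside 22.8% and 23.0% of all genes.

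**Figure D5:**
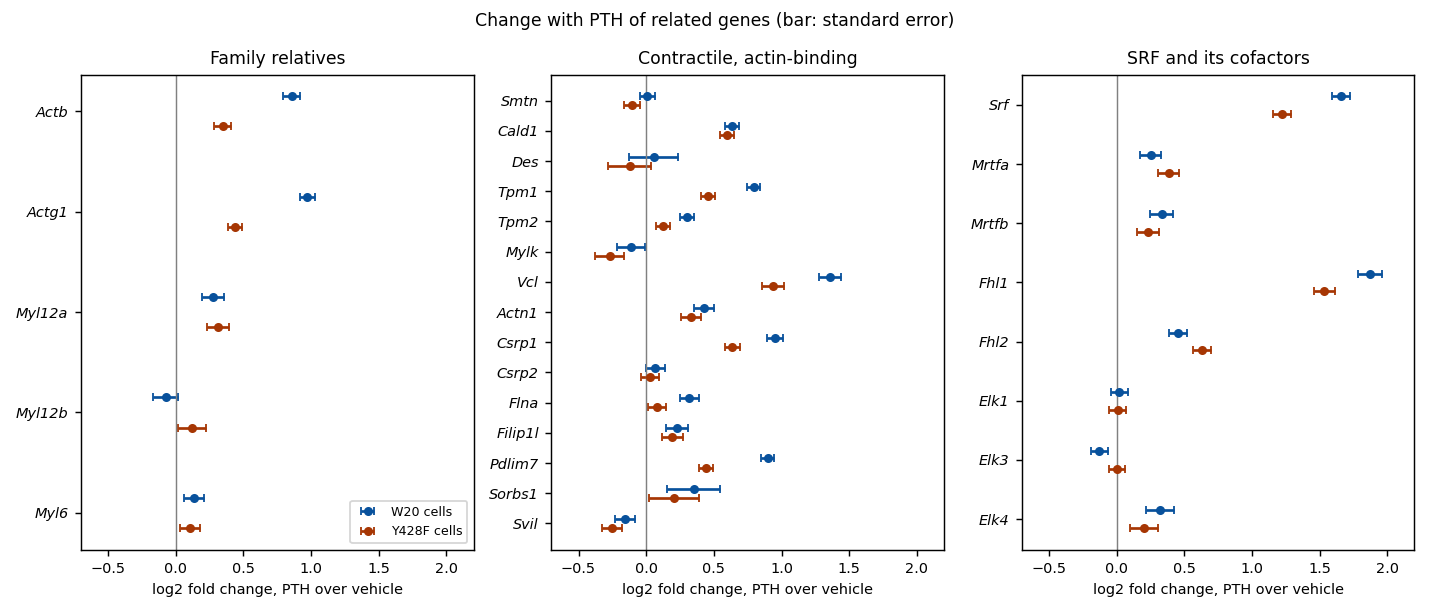
Log2 fold change with PTH over vehicle (horizontal axes) of the actin and light chain relatives, the contractile and actin-binding genes and SRF with its cofactors, in WT (W20) and Y428F cells; bars are standard errors from edgeR. *Actb* and *Actg1* rise less in Y428F cells, whereas *Myl12a*, *Cald1* and *Fhl2* do not show a difference past the limit; *Actc1*, *Myh11*, *Lmod1*, *Synpo2* and untested genes are not drawn.

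Markers of muscle were then examined in the same libraries. Of 19 markers that define skeletal or cardiac muscle, *Myod1*, *Myog*, *Myf5*, *Myh2* and *Myh4* had 0 counts in every library, and a count of 0 allows up to 3 counts, or 0.185 CPM in the library with the highest such limit. In all, 13 of the 19 had at most 10 counts in any library. The summed level of the list was 7.20 CPM in WT cells with vehicle and 6.80 CPM with PTH, and 7.71 and 7.67 CPM in Y428F cells. Per kilobase, *Tnnc1*, a troponin C, was the highest of them in WT cells, at 4.34 CPM per kb with vehicle and 3.94 with PTH, and *Tnni2*, a troponin I, in Y428F cells, at 2.03 and 2.43 CPM per kb. With PTH 0 of the 9 that could be tested passed the limit in either line by edgeR or DESeq2, and 0 had an unadjusted p under 0.05. By edgeR 13.4% of all genes passed in WT cells and 12.4% in Y428F cells, so nothing is read from a count of 0 among 9 genes. Between the lines with vehicle, 2 of the 9 were higher in Y428F cells and 1 was lower (22.4% and 22.7% of all genes). *Tnnc1* was lower in Y428F cells by 1.41 on the log2 scale, and *Tnni2* and *Ttn*, titin, were higher by 1.22 and 0.90. The call of *Ttn* was lost in 2 of the 12 fits that left out a library. With PTH 3 were higher and 2 lower in Y428F cells (22.8% and 23.0% of all genes). The largest differences past the limit there were those of *Tnnc2* at -2.27, *Tnnt2* at 2.14, *Tnnc1* at -1.55 and *Tnni2* at 1.22. *Tnnc2* and *Tnnt2* each had 0 to 12 counts per library, and their calls were lost in 4 and 6 of the 12 fits that left out a library.

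Of 9 markers of smooth muscle cells and pericytes, of which 6 could be tested, *Abcc9* and *Kcnj8* had 0 counts in every library, *Rgs5* at most 4 and *Myh11*, the myosin heavy chain that defines smooth muscle, at most 9. With PTH 2 were higher in each line, *Lmod1* and *Mcam*, the latter by 0.20 and 0.21, and 1 was lower, *Notch3*, at -0.41 and -0.60 (7.42% and 6.61% of all genes were higher with PTH in the 2 lines, and 6.01% and 5.78% lower). The call of *Mcam* in WT cells was lost in 2 of the 12 fits that left out a library. *Mcam* was the most abundant of them, and the list summed to 238 and 252 CPM in WT cells with vehicle and PTH and to 194 and 212 CPM in Y428F cells. *Notch3* was also lower in Y428F cells, by 1.26 with vehicle and 1.44 with PTH, *Mcam* was lower by 0.15 and 0.14 with calls lost in 2 and 3 of the 12 such fits, and *Des* was the marker that was higher. Between the lines 1 was thus higher and 2 lower at each treatment. Of all genes, 22.4% were higher and 22.7% lower with vehicle, and 22.8% and 23.0% with PTH.

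Of 14 markers of BMSCs and osteoblasts, *Thy1* had 0 counts in every library, *Nt5e* at most 2, *Alpl* at most 7 and *Lepr* at most 21. The rest were expressed, with *Col1a2* the most abundant. Together they summed to 21992 CPM in WT cells on vehicle and 21679 CPM on PTH, and to 14678 and 12436 CPM in the Y428F line. With PTH 2 were higher and 2 lower in each line, with *Pdgfra* at -0.60 and -0.73, *Pparg* at 0.51 and 0.71 and *Cd44* at 0.33 and 0.31 in the 2 lines, *Pdgfrb* at -0.27 in WT cells and *Col1a1* at -0.33 in Y428F cells (6.01% and 5.78% of all genes were lower with PTH in the 2 lines, and 7.42% and 6.61% higher). *Pdgfrb* was close to the limit in WT cells (adjusted p = 0.0496), with overlapping libraries, and lost its call in 10 of the 12 fits that left out a library, and *Col1a1* lost its call in Y428F cells in 2. When a library was left out, the counts ranged from 1 to 2 lower and 2 to 3 higher in WT cells and from 1 to 3 lower in Y428F cells. Between the lines with vehicle 4 were higher in Y428F cells and 7 lower (22.4% and 22.7% of all genes), the largest being *Lepr* at 2.77, *Pdgfra* at -1.59, *Pdgfrb* at -1.51 and *Ly6a* at 1.23. With PTH 4 were higher and 6 lower (22.8% and 23.0% of all genes), and the largest were the same 4 genes, at 2.34, -1.72, -1.42 and 1.10. These markers differed between the lines together with *Myl9*, *Tagln* and *Tagln2*, and their part in those differences was not tested.

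Among markers of blood and endothelial cells, *Cd3e* had 0 counts in every library, and the list summed to 2.41 and 2.00 CPM in WT cells with vehicle and PTH and to 11.8 and 10.3 CPM in Y428F cells. *Cdh5*, VE-cadherin, had 6 to 20 counts per library in WT cells and 100 to 162 in Y428F cells. It was higher in Y428F cells by 3.28 on the log2 scale with vehicle and 3.48 with PTH, and *Ptprc* by 1.70 and 2.73. Between the lines 2 of the 6 that could be tested were higher at each treatment and 0 were lower. Of all genes, 22.4% were higher and 22.7% lower with vehicle, and 22.8% and 23.0% with PTH. With PTH 0 of the 6 tested passed the limit in either line by edgeR or DESeq2, and *Cdh5* in Y428F cells was the 1 with an unadjusted p under 0.05. As 13.4% of all genes passed in WT cells and 12.4% in Y428F cells by edgeR, nothing is read from 0 of 6. For the difference in response, 0 genes of the 4 marker lists were called by edgeR or DESeq2, and 3 had an unadjusted p under 0.05 (*Ptprc*, *Col1a1* and *Col1a2*). Over all genes tested 0.413% were called by edgeR, so nothing is read from a count of 0.

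The genes outside the set whose expression followed *Acta1* and *Acta2* most closely were sought by Pearson's r of log2 CPM over the 12 libraries, among the 11208 genes that averaged 2 CPM or more. These libraries fall into the 4 groups, so r mostly reflects the group means and is given as a description. For *Acta1* they were *Fhdc1* (r = 0.989), *Wdr1* (0.984), *Prepl* (0.981), *Srf* (0.979) and *Tpm1* (0.978). For *Acta2* they were *Tpm1* (0.992), *Mbnl1* (0.987), *Pdlim7* (0.985), *Csrp1* (0.985) and *Smad2* (0.983). *Fhdc1*, which encodes a formin, had 26.6 CPM in WT cells with vehicle and 49.0 CPM with PTH, and 29.5 and 42.7 CPM in Y428F cells. *Wdr1*, which encodes an actin-disassembling partner of cofilin, had 337 and 537 CPM in WT cells and 368 and 487 CPM in Y428F cells, so that its step with PTH was small beside that of *Acta1*.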

How the data were processed

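The authors mapped reads with STAR 2.7.10b to GRCm39 with the GENCODE vM31 basic annotation and deposited RSEM expected counts per gene, not scaled for depth or length. The library protocol names both a directional and a non-directional option. These were rounded, and edgeR 4.0.16 (R 4.3.3) was run on genes totalling 10 counts or more (TMM, quasi-likelihood test, 4 groups in a single fit of 12 libraries, Benjamini-Hochberg adjustment), with calls at an adjusted p under 0.05. A rounded count of 0 in a library allows up to 3 counts, for counting error only. Gene positions and transcript lengths came from GENCODE vM39, to which 56236 gene identifiers matched and 744 did not. Replicates differed by more than counting noise (chi-square per degree of freedom 2.94 to 15.2). Mitochondrial genes held 0.703% to 1.02% of counts. Alternatives were DESeq2 1.42.0, other scalings and filters, fits of each line alone, the replicate number as a block, a stricter limit and each library left out. The test was also tried on simulated counts, but the outcome of that trial is not given here and nothing is read from it. The named genes are the 10 of the set, the genes of 7 lists (all of the relatives and the SRF list, otherwise the most abundant, those at 0 and up to 4 with the largest change per comparison) and the 5 genes most like *Acta1* and *Acta2*. The members and lists were chosen with earlier results of these data known. Motifs were searched in Python 3.11.15.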

Additional observations from a re-analysis of the deposited data

Results flagged for a closer look

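The 10 genes were chosen with the response of WT cells to PTH known, and that response is a term of the difference in response between the lines, so the values here are a description and no test of the set. The log2 difference in response (Y428F minus WT) was -1.02 for *Acta2*, -1.33 for *Cnn1*, -0.55 for *Tagln*, -0.55 for *Myl9* and -1.37 for *Nexn*, the 5 genes listed here because they were past the limit in the fit over all genes, and nothing is read from that number. *Tagln* was no longer past it in 9 of the 12 fits that left out a library. Every PTH library of Y428F cells was below every PTH library of WT cells for each of the 5, as for 26.3% of all genes tested. The same PTH libraries enter the difference in response by which the 5 were listed, so nothing is read from this either. The cause was not tested, and the effect of the mutation and other differences between the lines cannot be told apart.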

How the results depend on the processing

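The alternatives other than the stricter limit gave 915 values of the 10 genes. Of these, 882 kept their direction and side of the limit, 21 lost the call, 12 gained it and 0 turned direction. With vehicle, the count of genes higher in Y428F cells went from 4 to 1 at a stricter limit (adjusted p under 0.01, log2 difference beyond 0.3), and from 2 to 4 when a library was left out, being 2 without Y428F vehicle replicate 3. With PTH it went from 1 to 2 with library totals in place of TMM, by *Cnn3*. *Acta2* with vehicle lost its call without WT vehicle replicate 2 or Y428F vehicle replicate 3, and *Cnn2* with no filter on low counts. With PTH in Y428F cells, the count of genes higher went from 6 to 10 when a library was left out, and *Actg2* and *Nexn* lost calls. *Cnn3* and *Tagln2* gained calls there, each in 2 of the 12 such fits and also under alternatives other than leaving out a library. The difference in response of *Cnn2* was called by DESeq2. Over all genes, the difference in response called 73 genes, 123 by DESeq2, 216 with no filter, 22 at the stricter limit and 24 to 89 with a library left out. The stricter limit also took the 2375 genes called with PTH in WT cells to 1073 and the 2192 in Y428F cells to 942. Within the set it dropped the calls of *Cnn3* with PTH in WT cells and of *Actg2* and *Cnn2* with PTH in Y428F cells. It also dropped that of *Tagln* for the difference in response. Library totals moved the share of higher calls with PTH from 55.2% to 37.3% in WT cells and from 53.4% to 38.1% in Y428F cells, without turning any gene of the set. The replicate numbers did not pair the libraries (mean r of residuals 0.0019 over 18 pairs), and with the replicate block the difference in response was again lower for 5 genes of the set and higher for 0, and 76 genes in all were called. At this depth *Acta1* and *Actg2* with vehicle rested on 3 to 38 counts per library.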
